A study of Mus musculus with 6 samples.

Results

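Collagen genes were followed in the cerebral cortex of FAD5x and Control mice. The set was chosen by name: every protein-coding gene of the count table whose symbol has the form Col, a type number, the letter a and a chain number. A total of 44 of the 47728 genes in the table met that rule. They were divided into 11 fibrillar genes, 6 basement membrane genes (the type IV chains) and 27 other genes, by the kind of assembly that each chain is known to form. FAD5x mice carry human transgenes with familial Alzheimer's disease mutations, driven in neurons by a Thy1 promoter cassette, and Control mice were wild-type C57BL/6. Each group was represented by 3 libraries of total RNA from flash frozen cortex. Ages and sexes of the mice, and whether each library came from a different mouse, are not given in the sources used here. The p-values below therefore describe the spread between libraries, which could be technical. The library names of FAD5x replicates 1 and 2, AD_2 and AD_2_B, resemble each other, and whether they share a mouse is not given either. Their counts differed by far more than sampling noise (chi-square of 63.5 per degree of freedom over the tested genes). They were therefore treated as separate libraries. Libraries of the same mouse can also differ in this way, so this does not show whether they share a mouse.

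Collagens are secreted or membrane-bound proteins in which 3 chains wind into a triple helix. Fibrillar collagens pack into the fibers of connective tissue, and in brain they are mainly made by fibroblasts of the meninges and around larger vessels. Type IV chains form the sheet-like network of basement membranes, which in cortex ensheathes vessels and underlies the pial surface. The other families decorate fibrils, anchor basement membranes, form beaded filaments around cells or span the plasma membrane. Col25a1, a neuronal transmembrane collagen, is the gene of the amyloid-associated protein CLAC, a known component of plaques.

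The libraries held 17363946 to 24137936 counts. Levels are given as CPM, the count of a gene relative to the library's total, scaled by normalisation factors, in the order of replicates 1, 2 and 3, and each fold change is the log2 ratio of FAD5x to Control, with its standard error (SE). Control replicate 1 stood apart in sex-linked RNA, with 3 Xist counts and 3124 counts of 4 Y-linked genes. In the other 5 libraries Xist had 10346 counts or more, and the Y-linked genes had 9 or fewer. The counts have a male pattern in Control replicate 1 and a female pattern in the other 5, all FAD5x libraries included. The sexes themselves are not given. Cortical neuron markers were abundant in every library, with summed levels of 4337.8 to 7287.8 CPM, and none of the 11 was called or had an unadjusted p below 0.05. FAD5x replicate 2 had the lowest value of the 6 libraries for 26 of the 43 collagens tested (60.5%), compared with 23.0% of all tested genes.

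Per kilobase of exon, the levels of the collagens in this tissue covered a wide range. Col6a1, a chain of the beaded filament collagen VI, had the highest mean over all libraries at 21.3 CPM per kilobase. It was followed by the basement membrane chains Col4a2 at 9.62 and Col4a1 at 8.69, and then by Col1a1 at 5.22 CPM per kilobase. Among the fibrillar genes Col11a2 was next in this mean, with 3.73 CPM per kilobase, but the order differed between the groups. In Control the mean levels per kilobase were 9.51 for Col1a1, 5.5 for Col1a2 and 2.98 for Col11a2. In FAD5x they were 0.927, 0.689 and 4.49 CPM per kilobase. Lowest of all was Col4a3, a kidney and lung type IV chain, at 0.0531 CPM per kilobase. Exon lengths were taken from an annotation of the earlier mouse build, so levels per kilobase are approximate.

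Of the 44 collagens, 43 had enough counts to be tested. The exception was Col10a1, the hypertrophic cartilage collagen, with 0.33, 0.63 and 0.993 CPM in FAD5x libraries and 0.11, 0.337 and 0.112 CPM in Control libraries. In the comparison of FAD5x with Control, 3 collagens fell and none rose (edgeR quasi-likelihood test, Benjamini-Hochberg adjusted p below 0.05 over all 17074 tested genes). The 3 were Col3a1, Col26a1 and Col12a1, or 6.98% of the tested collagens, compared with 1.39% of all tested genes called lower and 1.76% called higher. At an unadjusted p below 0.05, 13 collagens were lower (30.2%, compared with 10.1% of all tested genes) and 2 were higher (4.65%, compared with 11.2%). All 3 FAD5x libraries lay below all 3 Control libraries for 15 collagens, or 34.9%, where the share among all tested genes was 13.2%. The reverse arrangement was seen for 2 collagens, or 4.65%, compared with 14.1% of all tested genes. Fold changes were below 0 for 30 of the 43 collagens (69.8%) and for 48.5% of all tested genes, and the medians were -0.62 and 0.02. Fewer collagen-producing cells and less collagen RNA per cell cannot be told apart in RNA of whole tissue.

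**Figure D1:**
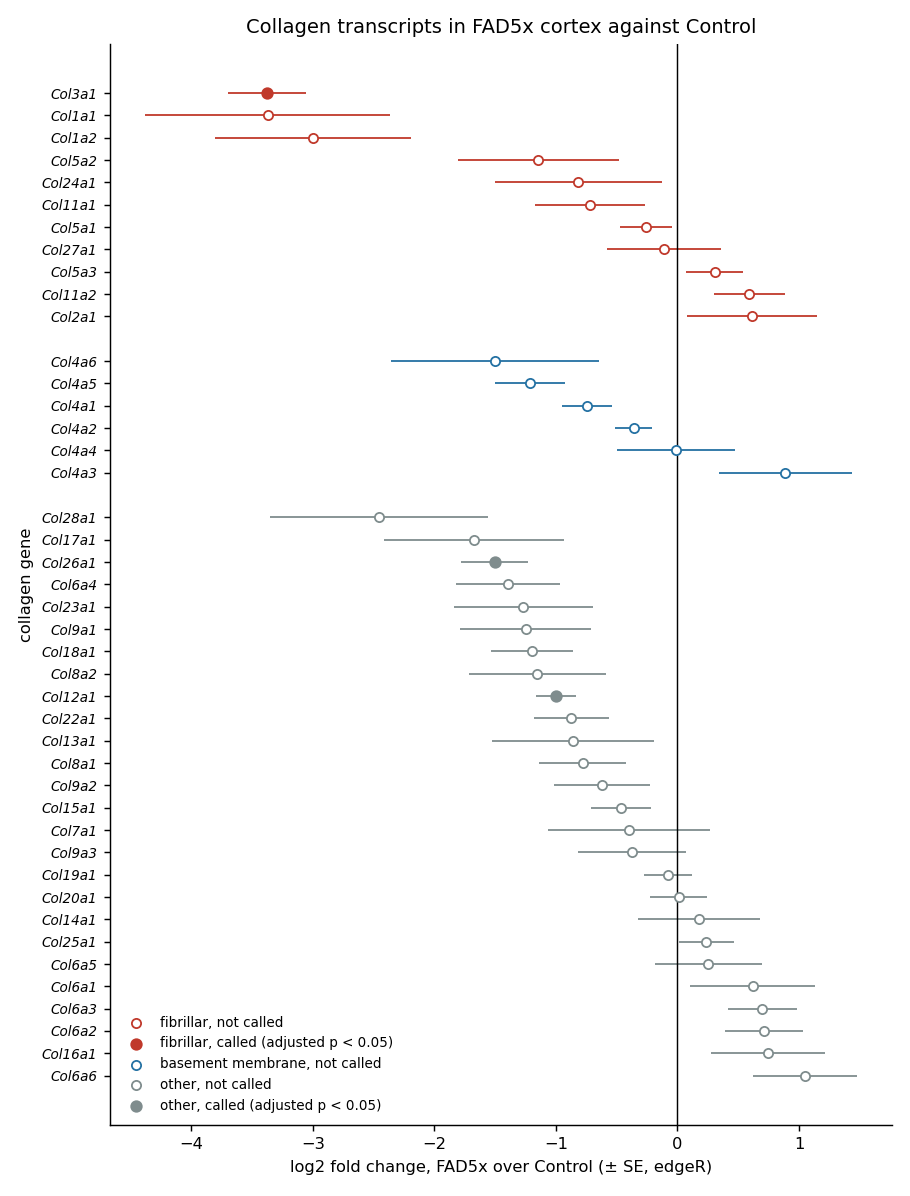
Log2 fold change (FAD5x over Control) of the 43 tested collagens, with points for the estimates, filled where called, bars for their SE, and collagens grouped by class. The 3 called genes lie at -3.38 (Col3a1), -1.51 (Col26a1) and -1.0 (Col12a1), and 30 of the 43 points lie below 0.

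The fibrillar collagens held the largest fold change among the called members. Col3a1 (ENSMUSG00000026043), whose homotrimers form the fine reticular fibers of vessel walls and meninges, measured 1.4, 1.31 and 1.15 CPM in FAD5x libraries and 12.6, 18.9 and 8.89 CPM in Control libraries. The FAD5x libraries were close together, and each was far below the lowest Control library. Col3a1 fell 10.4-fold (log2 -3.38 ± 0.32 SE, 3 libraries per group, adjusted p = 0.00178 by edgeR's quasi-likelihood test), and it was called in every one of the alternative analyses that were run.

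Col1a1 (ENSMUSG00000001506) and Col1a2 (ENSMUSG00000029661), which together form type I collagen, the main fiber of skin, bone and dura, were also low in every FAD5x library. Col1a1 measured 3.5, 1.74 and 13.0 CPM in FAD5x libraries and 27.9, 129.6 and 29.7 CPM in Control libraries. For Col1a2 the levels were 8.16, 2.47 and 15.0 CPM in FAD5x libraries and 40.7, 128.3 and 36.1 CPM in Control libraries. Neither pair of groups overlapped, but Control replicate 2 stood far above the other Control libraries for both genes, and the FAD5x libraries also spread widely. Neither gene passed the test (Col1a1 log2 -3.37 ± 1.01, adjusted p = 0.143; Col1a2 log2 -3.0 ± 0.81, adjusted p = 0.117), although their fold changes were near that of Col3a1. Without Control replicate 2 the values were -2.25 for Col1a1 and -2.17 for Col1a2. Both were called without FAD5x replicate 3 (adjusted p = 0.0287 and 0.0371) and by DESeq2 (0.0224 and 0.0133). Together, Col1a1, Col1a2 and Col3a1 made up 2.29%, 1.55% and 4.35% of the summed collagen level (CPM) in FAD5x, and 11.7%, 33.6% and 12% in Control.

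The promoters of Col3a1, with the largest fold change of the called collagens, and of Col1a2 are shown. Col1a1 had a fold change closer to that of Col3a1, but no window was matched for it. The called genes Col12a1 and Col26a1 had no window either. Col1a2 was chosen after its values were seen. Both windows run from 250 bases before to 50 bases after the RefSeq start on GRCm38.p6, on the plus strand. Capitals mark any match, on either strand, to a CCAAT box with these 5 letters, to a GC box spelled GGGCGG, or to a TATA box spelled TATAAA. These are matches by spelling alone, at any position, and whether any acts as a promoter element was not tested.
Col3a1 promoter, chr1:45311288-45311587, plus strand: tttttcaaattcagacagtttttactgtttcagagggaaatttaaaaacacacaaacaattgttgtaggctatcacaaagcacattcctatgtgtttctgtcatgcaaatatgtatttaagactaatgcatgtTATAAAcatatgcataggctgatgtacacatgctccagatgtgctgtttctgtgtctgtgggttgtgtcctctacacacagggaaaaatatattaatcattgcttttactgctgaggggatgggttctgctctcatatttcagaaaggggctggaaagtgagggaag
Col1a2 promoter, chr6:4505368-4505667, plus strand: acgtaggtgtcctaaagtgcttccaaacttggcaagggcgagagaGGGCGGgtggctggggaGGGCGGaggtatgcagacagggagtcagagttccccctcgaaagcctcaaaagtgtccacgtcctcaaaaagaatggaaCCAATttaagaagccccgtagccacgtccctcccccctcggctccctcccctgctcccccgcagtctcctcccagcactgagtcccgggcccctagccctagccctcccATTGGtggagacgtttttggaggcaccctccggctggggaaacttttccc
The Col3a1 window held 1 TATA box and neither of the other motifs, with 37.7% G or C. By contrast, the Col1a2 window held 2 CCAAT boxes, 2 GC boxes and no TATA box, with 61% G or C. The windows had no searched motif in common.

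Among the other 8 fibrillar genes none was called, and their fold changes went both ways. Col11a2, a chain of the cartilage collagen XI, measured 44.2, 17.5 and 30.7 CPM in FAD5x libraries and 21.9, 19.8 and 19.7 CPM in Control libraries (log2 0.59 ± 0.29, adjusted p = 0.298). Its Control libraries were nearly equal, while FAD5x replicate 2 was below all of them and the other FAD5x libraries above. Without FAD5x replicate 2 the value was 0.88 and passed the test (adjusted p = 0.0212). Col5a2, a regulator of type I fibril diameter, had 10.3, 1.41 and 5.54 CPM in FAD5x libraries and 17, 15.3 and 6.15 CPM in Control libraries (log2 -1.15 ± 0.66, adjusted p = 0.379), with FAD5x replicate 2 again lowest. Without that library the Col5a2 value was -0.68. Its partner Col5a1 had a log2 value of -0.26 ± 0.21 and Col5a3 had 0.31 ± 0.24. Col11a1, the partner chain of Col11a2, measured -0.72 ± 0.46. Col24a1, known from developing bone, and Col27a1, known from growth plate cartilage, measured -0.82 ± 0.69 and -0.11 ± 0.47. Col2a1, the main cartilage collagen, measured 0.62 ± 0.54. Without Col1a1, Col1a2 and Col3a1, the summed fibrillar level was 119.2, 53.2 and 112.1 CPM in FAD5x libraries and 133.4, 93.5 and 97.3 CPM in Control libraries, so the groups overlapped.

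**Figure D2:**
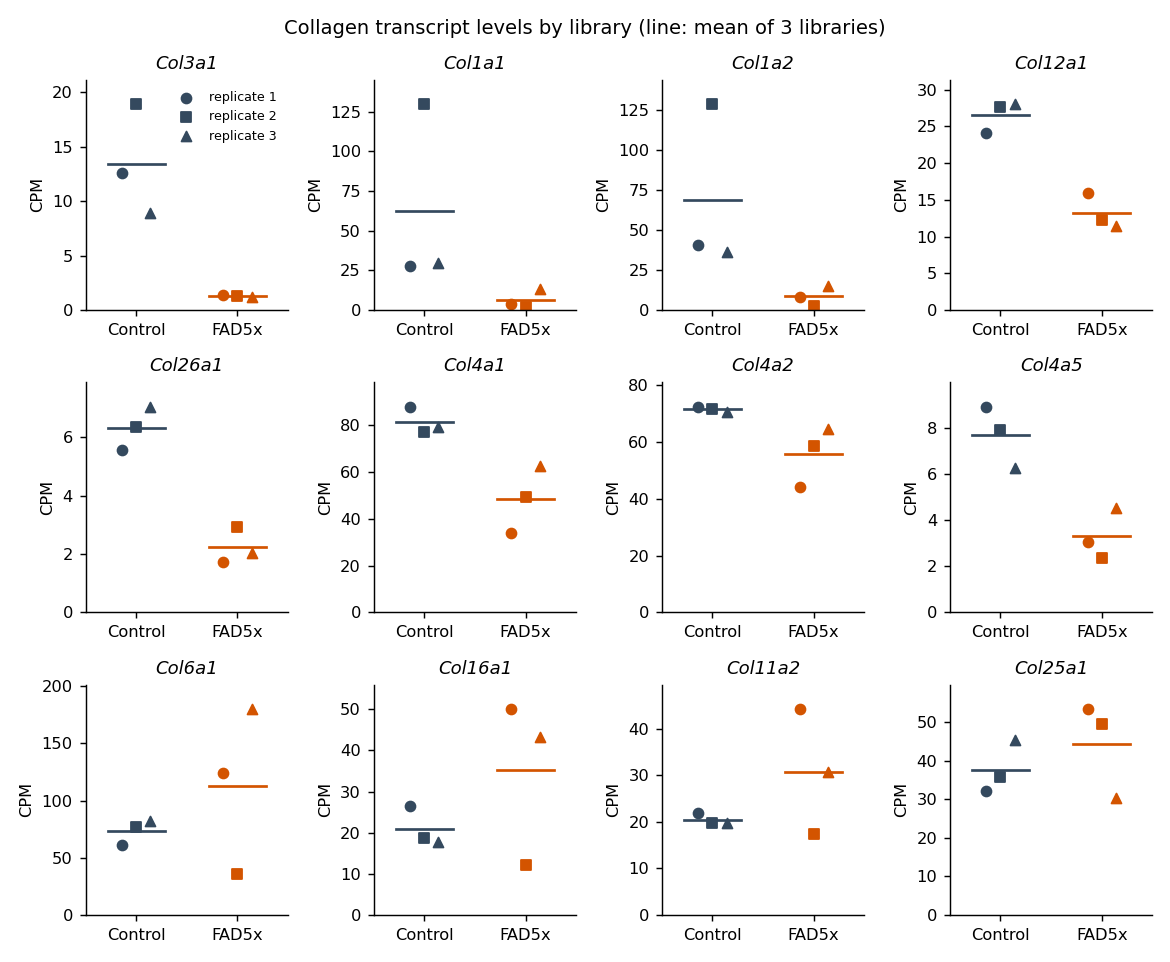
Levels of the collagens described by library (CPM, linear axis from 0), with 1 point per library, a marker shape for each replicate number and a line at the group mean. FAD5x and Control points do not overlap for Col3a1, Col1a1, Col1a2, Col12a1, Col26a1, Col4a1, Col4a2 and Col4a5, and they overlap for Col6a1, Col16a1, Col11a2 and Col25a1.

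None of the 6 type IV chains was called by edgeR, while 3 were lower at an unadjusted p below 0.05 (50%, compared with 10.1% of all tested genes) and 2 were called by DESeq2. For 4 of them the groups did not overlap, and they were lower in every FAD5x library than in any Control library (66.7%, compared with 13.2% of all tested genes). Col4a1 (ENSMUSG00000031502), which with Col4a2 forms the network found in nearly all basement membranes, measured 33.9, 49.2 and 62.4 CPM in FAD5x libraries and 87.6, 77.0 and 79.1 CPM in Control libraries. Its log2 value was -0.75 ± 0.21 (adjusted p = 0.0942). It was called by DESeq2 (adjusted p = 0.0197) and, by edgeR, without FAD5x replicate 3 (0.0326). Col4a2 (ENSMUSG00000031503) had 44.1, 58.5 and 64.7 CPM in FAD5x libraries and 72.4, 71.7 and 70.5 CPM in Control libraries (log2 -0.36 ± 0.15, adjusted p = 0.22). For both chains the Control libraries were tightly grouped and FAD5x replicate 1 was lowest. FAD5x replicate 3 was nearest to Control.

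Per kilobase, the ratio of Col4a1 to Col4a2 was 0.681, 0.745 and 0.855 in FAD5x and 1.07, 0.952 and 0.995 in Control. The means were 0.76 ± 0.088 (SD, n = 3) and 1.01 ± 0.0597 (SD, n = 3). The ratio was lower in each FAD5x library than in any Control library. An exact two-sided permutation test gave p = 0.1, which is the smallest that 3 against 3 libraries allow, and 0.4 after Benjamini-Hochberg adjustment over the 4 chain pairs compared. The other 3 pairs overlapped, with exact permutation p-values of 0.5 for Col1a1 over Col1a2, 0.6 for Col6a1 over Col6a2 and 1.0 for Col9a3 over Col9a2.

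Col4a1 and Col4a2 lie head to head and are transcribed away from a shared promoter, so their windows are printed to show what the pair shares. They were chosen after their values were seen. Col4a1 is on the minus strand and Col4a2 on the plus strand, and each sequence reads in the direction of its own gene, with capitals as above.
Col4a1 promoter, chr8:11312777-11313076, minus strand: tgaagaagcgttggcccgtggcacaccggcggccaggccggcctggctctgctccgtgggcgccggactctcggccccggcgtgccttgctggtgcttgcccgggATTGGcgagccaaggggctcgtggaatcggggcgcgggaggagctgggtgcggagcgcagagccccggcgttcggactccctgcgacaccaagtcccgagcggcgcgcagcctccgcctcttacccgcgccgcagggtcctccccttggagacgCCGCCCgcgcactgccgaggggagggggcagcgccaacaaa
Col4a2 promoter, chr8:11312555-11312854, plus strand: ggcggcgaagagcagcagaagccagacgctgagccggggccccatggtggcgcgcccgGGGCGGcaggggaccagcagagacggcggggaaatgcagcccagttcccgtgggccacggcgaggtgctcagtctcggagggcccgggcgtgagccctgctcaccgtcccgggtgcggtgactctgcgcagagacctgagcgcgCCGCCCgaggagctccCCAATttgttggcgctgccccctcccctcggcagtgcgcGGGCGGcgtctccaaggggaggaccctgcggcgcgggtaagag
The 2 windows shared 78 bases, read on opposite strands, and the annotated starts were 21 bases apart, with the transcripts overlapping between them. Each window held 1 CCAAT box. The GC box was found once in the Col4a1 window and 3 times in the Col4a2 window, and neither held a TATA box. The share of G or C was 74% for Col4a1 and 73.7% for Col4a2. RefSeq windows were matched for 35 of the 44 collagens, and 38 windows were found because some genes have several starts. The GC box was present in 60.5% of the collagen windows and in 35.7% of 32851 windows of the same length over all genes. For the CCAAT box the shares were 34.2% and 37.4%, and for the TATA box 13.2% and 13.6%.

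The remaining type IV chains were at lower levels. Col4a5 (ENSMUSG00000031274), the X-linked chain mutated in Alport syndrome, had 3.05, 2.37 and 4.55 CPM in FAD5x libraries and 8.92, 7.92 and 6.26 CPM in Control libraries (log2 -1.21 ± 0.29, adjusted p = 0.0639). It was called by DESeq2 (adjusted p = 0.00449). Without Control replicate 1, the library with almost no Xist, its log2 value was -1.09. Col4a6, its head-to-head neighbor and partner in smooth muscle basement membranes, had 0.989, 0 and 0.731 CPM in FAD5x libraries and 1.76, 2.19 and 1.01 CPM in Control libraries, from at most 39 counts in any library. Its log2 value was -1.50 ± 0.86 (adjusted p = 0.364), and -0.92 without FAD5x replicate 2. Col4a3 and Col4a4, the partners of Col4a5 in the kidney filter, overlapped between the groups, with log2 values of 0.89 ± 0.55 and -0.01 ± 0.49.

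Fibril-associated collagens bind to the surface of fibrils and are interrupted by flexible stretches. Of the 9 tested, 1 fell and none rose (11.1%, compared with 1.39% called lower over all tested genes), and their median log2 value was -0.37. Col12a1 (ENSMUSG00000032332), which links type I fibrils to other matrix, measured 15.9, 12.3 and 11.5 CPM in FAD5x libraries and 24.1, 27.7 and 28 CPM in Control libraries. Both groups were compact and well separated. Col12a1 fell 2-fold (log2 -1.0 ± 0.17 SE, 3 libraries per group, adjusted p = 0.0207 by edgeR's quasi-likelihood test). The call was lost without Control replicate 1 (adjusted p = 0.0662), 2 (0.0995) or 3 (0.0767), while it held without any single FAD5x library.

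Col16a1, a chain found near basement membranes and small fibrils, had the highest level per kilobase of this family. It measured 50, 12.2 and 43.3 CPM in FAD5x libraries and 26.4, 18.7 and 17.8 CPM in Control libraries (log2 0.75 ± 0.47, adjusted p = 0.421). FAD5x replicates 1 and 3 lay above every Control library, whereas FAD5x replicate 2 lay below them all. Without FAD5x replicate 2 the log2 value was 1.16 and passed the test (adjusted p = 0.0107). The chains of collagen IX, which coats type II fibrils in cartilage and vitreous, all had values below 0 and none passed the test. Col9a1 had 0.412, 0.824 and 1.04 CPM in FAD5x libraries and 2.92, 1.52 and 0.95 CPM in Control libraries (log2 -1.25 ± 0.54, adjusted p = 0.229). Col9a2 had 6.31, 3.59 and 7.52 CPM in FAD5x libraries and 13.9, 7.36 and 5.48 CPM in Control libraries (log2 -0.62 ± 0.40, adjusted p = 0.42). For Col9a3 the levels were 15.9, 3.83 and 12.2 CPM in FAD5x libraries and 15.9, 13.7 and 11.9 CPM in Control libraries (log2 -0.37 ± 0.44, adjusted p = 0.678). Each of the 3 chains overlapped between the groups, and Control replicate 1 was highest, level with FAD5x replicate 1 for Col9a3. Without Control replicate 1 the log2 values were -0.70 for Col9a1 and -0.14 for Col9a2, and without FAD5x replicate 2 that of Col9a3 was 0.033. Col22a1, a collagen of tissue junctions, was lower in every FAD5x library (log2 -0.87 ± 0.31, adjusted p = 0.157). Col14a1, a collagen of skin and tendon fibrils, Col19a1, made in the cortex by interneurons, and Col20a1 had log2 values of 0.18 ± 0.50, -0.08 ± 0.20 and 0.01 ± 0.23.

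The beaded filament family, which comprises collagen VI and the related Col26a1 and Col28a1, went both ways. Its 8 genes included 1 that fell (12.5%, compared with 1.39% over all tested genes). Of the 8, 3 (Col6a4, Col26a1 and Col28a1) had all FAD5x libraries below all Control libraries (37.5%, compared with 13.2%), and 2 (Col6a3 and Col6a6) had them all above (25%, compared with 14.1%). Col26a1 (ENSMUSG00000004415), a short collagen first described in testis and ovary, measured 1.73, 2.91 and 2.04 CPM in FAD5x libraries and 5.56, 6.35 and 7.04 CPM in Control libraries. Every FAD5x value was well under the lowest Control value. Col26a1 fell 2.84-fold (log2 -1.51 ± 0.28 SE, 3 libraries per group, adjusted p = 0.0286 by edgeR's quasi-likelihood test). This call was lost without FAD5x replicate 1 (adjusted p = 0.0777) or 3 (0.0549) and without Control replicate 1 (0.101), 2 (0.112) or 3 (0.106), and it held without FAD5x replicate 2 (0.0107).

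Collagen VI forms a filament network around cells from Col6a1, Col6a2 and a longer chain such as Col6a3. Col6a1 (ENSMUSG00000001119) measured 123.9, 35.4 and 179.7 CPM in FAD5x libraries and 61.5, 76.9 and 82.2 CPM in Control libraries (log2 0.62 ± 0.51, adjusted p = 0.546). As for Col16a1, FAD5x replicates 1 and 3 were above and replicate 2 below the whole Control range. Without FAD5x replicate 2 the log2 value was 1.06 and passed the test (adjusted p = 0.017), and without FAD5x replicate 3 it was 0.12. Col6a2 had 22.3, 14 and 30.1 CPM in FAD5x libraries and 12.6, 18.3 and 9.62 CPM in Control libraries (log2 0.71 ± 0.32, adjusted p = 0.251). Col6a3 had 5.19, 7.95 and 5.54 CPM in FAD5x libraries and 3.19, 5.06 and 3.24 CPM in Control libraries (log2 0.70 ± 0.29, adjusted p = 0.212). The Col6a3 groups did not overlap, although FAD5x replicate 1 was only just above Control replicate 2, and FAD5x replicate 2 was here the highest library. The alternative long chains Col6a4, Col6a5 and Col6a6 lie in a row in the genome and had log2 values of -1.40 ± 0.43, 0.25 ± 0.44 and 1.05 ± 0.43, none of which passed the test. Col28a1, a collagen of peripheral nerve, had 0.412, 0 and 1.1 CPM in FAD5x libraries and 4.4, 2.14 and 1.68 CPM in Control libraries. It was not called by edgeR (log2 -2.45 ± 0.90, adjusted p = 0.174) and was called by DESeq2 (0.0283). Without FAD5x replicate 2 the Col28a1 value was -1.87, and without Control replicate 1 it was -1.93.

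Transmembrane collagens are anchored in the plasma membrane, and their outer parts can be shed. None of the 4 was called. Col25a1 (ENSMUSG00000058897) measured 53.4, 49.7 and 30.3 CPM in FAD5x libraries and 32.1, 35.7 and 45.4 CPM in Control libraries. The groups overlapped, with FAD5x replicate 3 the lowest of all 6 libraries. The log2 value of Col25a1 was 0.24 ± 0.23 (adjusted p = 0.595), and it lay between 0.09 and 0.45 when single libraries were left out. Col23a1 had 8.94, 3.54 and 19.9 CPM in FAD5x libraries and 35.8, 23.0 and 19.0 CPM in Control libraries, and its log2 value was -1.27 ± 0.57 (adjusted p = 0.261). Col17a1, a component of skin hemidesmosomes, was lower in every FAD5x library at 1 to 31 counts per library (log2 -1.67 ± 0.74, adjusted p = 0.239), and without FAD5x replicate 2 its value was -1.16. Col13a1, a collagen of neuromuscular junctions, measured -0.86 ± 0.67.

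Col15a1 and Col18a1, the multiplexins of vascular and epithelial basement membranes, were lower on average in FAD5x. Col18a1 (ENSMUSG00000001435), the source of the fragment endostatin, had 3.09, 1.74 and 3.92 CPM in FAD5x libraries and 8.64, 5.28 and 6.15 CPM in Control libraries. The groups did not overlap, but the gene did not pass the test (log2 -1.20 ± 0.34, adjusted p = 0.0992), and it was called by DESeq2 (0.0183). Col15a1 had a log2 value of -0.47 ± 0.25 with overlapping groups. Of the network and anchoring collagens, Col8a1, a chain of vessel walls and the corneal Descemet membrane, was lower in every FAD5x library (log2 -0.78 ± 0.36, adjusted p = 0.257). Its corneal partner Col8a2 measured -1.15 ± 0.56 and Col7a1, the anchoring fibril of skin, -0.40 ± 0.67, both with overlapping groups.

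**Figure D3:**
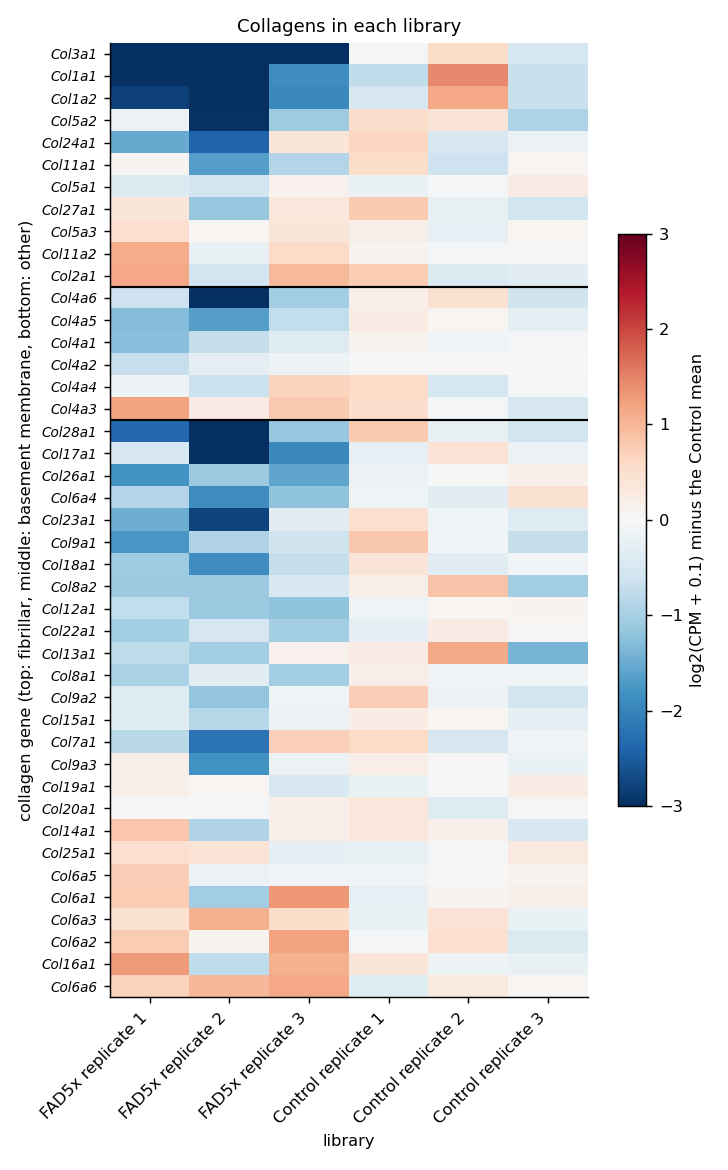
Log2 level of each tested collagen in each of the 6 libraries relative to its Control mean (log2 of CPM + 0.1), by class, with blue below and red above Control and colors limited to 3 log2 units either way. FAD5x replicate 2 is the lowest library for 26 of the 43 genes, and Control replicate 2 stands high for Col1a1 and Col1a2.

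The classes were then compared. The median log2 value was -0.72 over the 11 fibrillar genes, -0.55 over the 6 basement membrane genes and -0.54 over the 26 other genes tested, with 0.02 over all tested genes. Values below 0 were found for 8 of 11 (72.7%), 5 of 6 (83.3%) and 17 of 26 genes (65.4%), compared with 48.5% of all tested genes. Called lower were 1 (9.09%), 0 and 2 genes (7.69%), compared with 1.39% of all tested genes. The summed fibrillar level was 132.2, 58.7 and 141.3 CPM in FAD5x libraries and 214.6, 370.3 and 172.0 CPM in Control libraries, or 110.7 ± 45.3 and 252.3 ± 104.4 CPM (mean ± SD, n = 3). The sum of the basement membrane class was 84.2, 111.3 and 135.2 CPM in FAD5x libraries and 173.2, 160.1 and 158.4 CPM in Control libraries, or 110.3 ± 25.5 and 163.9 ± 8.13 CPM. In both classes every FAD5x library was below every Control library, and the Control mean exceeded the FAD5x mean 2.28-fold for the fibrillar and 1.49-fold for the basement membrane class. The other class summed to 354.0, 187.0 and 395.5 CPM in FAD5x libraries and 303.1, 294.2 and 290.5 CPM in Control libraries, so that its FAD5x libraries lay on both sides of the Control range. A large part of that sum was Col6a1. Differences between the classes were not tested, since genes are not replicates.

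**Figure D4:**
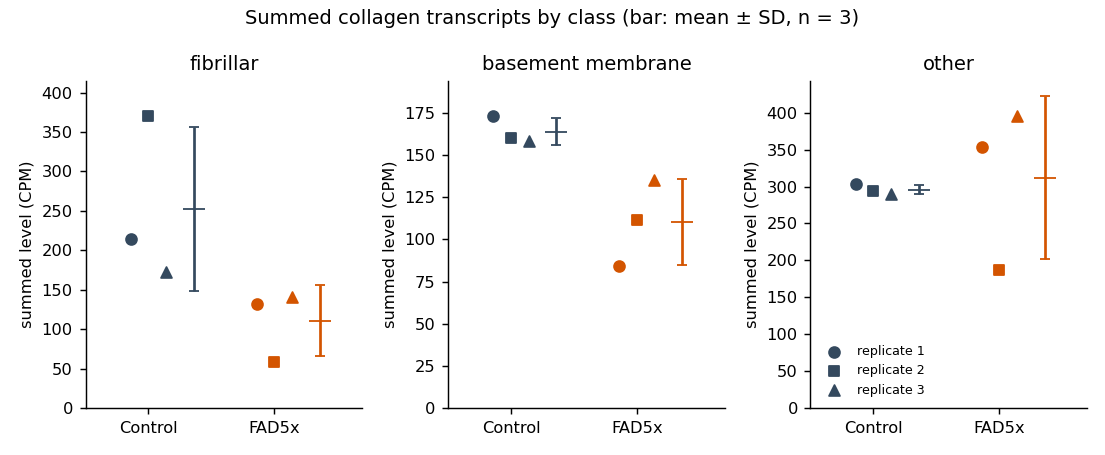
Summed level (CPM) of the fibrillar, basement membrane and other collagens in each library, with 1 point per library and the mean ± SD (n = 3) beside each group. FAD5x libraries are below all Control libraries in the fibrillar and basement membrane classes, and FAD5x libraries lie on both sides of Control in the other class.

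FAD5x replicate 2 was the lowest of the 6 libraries for 9 of 11 fibrillar (81.8%), 3 of 6 basement membrane (50%) and 14 of 26 other genes (53.8%). Relative to the Control mean, the median log2 level of the fibrillar genes was -0.18, -1.66 and 0.14 in the FAD5x libraries and 0.19, -0.04 and -0.32 in the Control libraries. The fibrillar median was outside the Control range in FAD5x replicate 2 alone. For the basement membrane genes the medians were -0.66, -0.68 and -0.26 in FAD5x and 0.19, -0.02 and -0.17 in Control, below Control in each FAD5x library. For the other genes they were -0.44, -0.96 and -0.24 in FAD5x and 0.19, 0.00 and -0.13 in Control, likewise below Control in each FAD5x library.

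Without FAD5x replicate 2, Col3a1, Col12a1 and Col26a1 were called lower (background 2.18% of tested genes) and Col6a1, Col11a2 and Col16a1 were called higher (background 3.41%). The median of the collagens was then -0.37. Without FAD5x replicate 3, 8 collagens were called lower (background 1.8%), namely Col3a1, Col12a1, Col1a1, Col1a2, Col4a1, Col4a5, Col23a1 and Col24a1. Without FAD5x replicate 1, Col3a1 and Col12a1 were called lower (background 0.587%). Col3a1 alone was called lower without Control replicate 1 (background 0.317%), 2 (0.238%) or 3 (0.451%). Without Control replicate 1, the library that differed in Xist and Y-linked counts, the median of the collagens was -0.35. With FAD5x replicate 2 and Control replicate 1 both left out, a pair picked once these values were known, Col3a1, Col12a1 and Col26a1 were called lower (background 1.15%), Col16a1 was called higher (background 1.62%) and the median was -0.22. DESeq2 called 9 collagens lower (background 3.53%), adding Col1a1, Col1a2, Col4a1, Col4a5, Col18a1 and Col28a1 to the 3, and none higher.

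Several collagens are neighbors in the genome, and their values did not always go together. Col3a1 and Col5a2 lie tail to tail, with log2 values of -3.38 and -1.15. The head-to-head pairs had -0.75 and -0.36 for Col4a1 and Col4a2, -1.50 and -1.21 for Col4a6 and Col4a5, and -0.01 and 0.89 for Col4a4 and Col4a3. Col6a2 and Col6a1, on 1 strand, had 0.71 and 0.62. Col9a1 and Col19a1, tail to tail, had -1.25 and -0.08.

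The genes that make, process, bind and degrade collagens were examined next, as lists drawn up by function. Their counts can be read against the shares of all tested genes, of which 1.39% were called lower and 1.76% higher, 10.1% were lower and 11.2% higher at an unadjusted p below 0.05, and 48.5% had values below 0. Of 21 genes for chain modification and folding, 1 fell and none rose, with a median log2 value of -0.12 and with 2 lower and 2 higher at an unadjusted p below 0.05. This was Serpinh1, the collagen-specific chaperone HSP47, which measured 12, 12.3 and 13.2 CPM in FAD5x libraries and 29.7, 29.1 and 23.0 CPM in Control libraries (log2 -1.13 ± 0.15, adjusted p = 0.0104). None of 13 tested genes for propeptide processing and crosslinking was called (median -0.46), and at an unadjusted p below 0.05 there was 1 lower and 1 higher. The most abundant were Bmp1, the C-propeptide protease, with a log2 value of -0.46 (adjusted p = 0.154), and Adamts3, an N-propeptide protease, with -0.09 (0.913).

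Among 22 tested fibril-binding matrix genes 3 fell and none rose (median -1.02; 11 lower and 2 higher at an unadjusted p below 0.05). They were Eln, the gene of elastin (log2 -2.43, adjusted p = 0.00413), Tnc, of the matrix glycoprotein tenascin C (-2.75, 0.00456), and Fn1, of fibronectin (-1.13, 0.0362). Of 20 partners of collagen IV in basement membranes 2 fell and none rose (median -0.67; 11 lower and 1 higher at an unadjusted p below 0.05). Nid1, which bridges laminin and collagen IV, measured 6.27, 5.62 and 7.16 CPM in FAD5x libraries and 59.5, 30.6 and 28.8 CPM in Control libraries (log2 -2.64 ± 0.30, adjusted p = 0.00575). The second was Lama4, a laminin chain of vessels (log2 -1.40, adjusted p = 0.026). In the partner list 18 of 20 values were below 0 (90.0%), as were 5 of 6 type IV chains (83.3%), compared with 48.5% of all tested genes.

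None of 10 tested collagen receptors was called (median -0.59; 6 lower and 1 higher at an unadjusted p below 0.05), the most abundant being Dag1, the dystroglycan gene (log2 -0.67, adjusted p = 0.0683), and Adgrg1, a receptor for collagen III (-0.50, 0.206). Of 16 tested genes of collagen degradation and its inhibitors 1 fell and none rose (median -0.24; 5 lower and 2 higher at an unadjusted p below 0.05). It was Mmp15, a membrane-type metalloprotease (log2 -1.01, adjusted p = 0.0198). None of 17 genes of TGF-beta signaling, a known inducer of fibrillar collagens, was called (median 0.13; 2 lower and 4 higher at an unadjusted p below 0.05). The most abundant were Smad3 (log2 0.26, adjusted p = 0.419) and Skil (-0.40, 0.277).

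**Figure D5:**
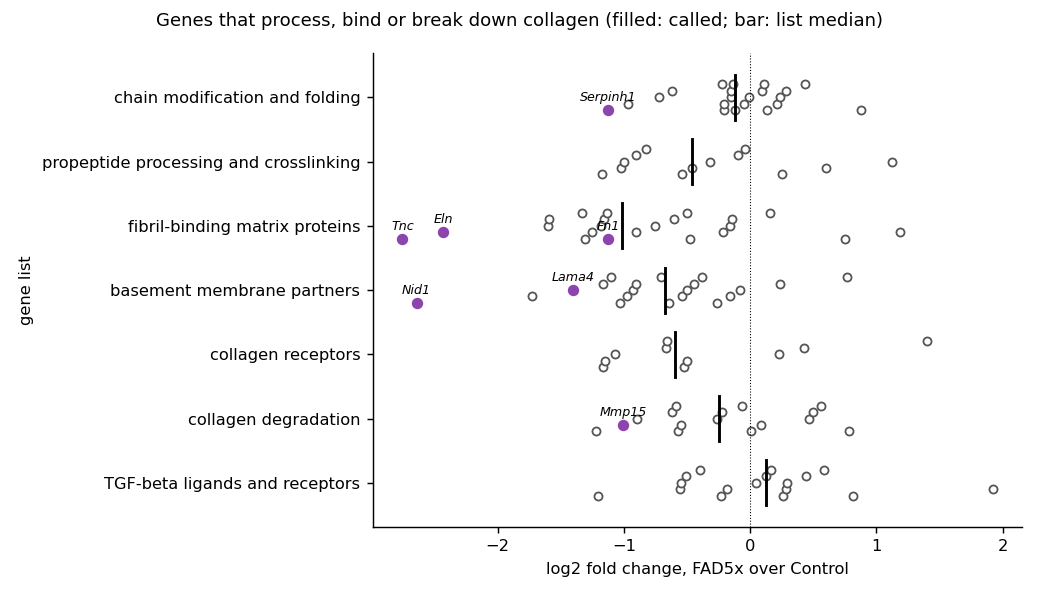
Log2 fold change (FAD5x over Control) of the genes in the 7 lists of collagen partners, with 1 point per tested gene, filled where called, and a line at each list's median. Called genes are Serpinh1, Eln, Tnc, Fn1, Nid1, Lama4 and Mmp15, all below 0, and the list medians run from -1.02 for fibril-binding matrix genes to 0.13 for TGF-beta genes.

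Markers of cells that make collagens, and of some other cell types, also differed in level between libraries. Of 16 tested fibroblast and meningeal markers 15 had values below 0 (93.8%, compared with 48.5% of all tested genes) and none was called (median -1.10). At an unadjusted p below 0.05, 8 were lower and 0 higher, where the shares of all tested genes were 10.1% and 11.2%. Their summed level was 260.5, 226.8 and 366.4 CPM in FAD5x libraries and 435.0, 530.2 and 339.2 CPM in Control libraries, highest in Control replicate 2, where Col1a1 and Col1a2 were also highest. The groups overlapped, since FAD5x replicate 3 was above Control replicate 3. In FAD5x replicate 2 the sum was lowest. Slc47a1, a meningeal transporter, measured 0.0412, 0 and 1.41 CPM in FAD5x libraries and 3.41, 5.56 and 2.12 CPM in Control libraries. The most abundant markers, Ccn3 and Pdgfra, had log2 values of 0.23 (adjusted p = 0.692) and -0.28 (0.602). Ccn3 was the 1 tested marker of this list with a value above 0. It measured 131.3 CPM in FAD5x replicate 3 and 97.8 CPM in Control replicate 3, and the overlap of the summed levels depended on it. Pdgfra is also in the list of oligodendrocyte precursor markers, so its level is not specific to fibroblasts. Endothelial markers summed to 332.2, 384.3 and 282.9 CPM in FAD5x libraries and 449.7, 457.9 and 365.5 CPM in Control libraries, with 7 of 12 lower and 0 higher at an unadjusted p below 0.05. Of the 12 endothelial markers 1 fell, where 1.39% of all tested genes were called lower. It was Kdr, a receptor for vascular endothelial growth factor (log2 -1.10, adjusted p = 0.0282). Of 12 pericyte and smooth muscle markers none was called, and 4 were lower at an unadjusted p below 0.05. They summed to 298.9, 212.9 and 227.1 CPM in FAD5x libraries and 360.9, 330.6 and 286.9 CPM in Control libraries. The most abundant, Rgs5 and Vtn, had log2 values of -0.625 (adjusted p = 0.0681) and -0.312 (0.484). All 12 markers of immature neurons and dividing cells had values below 0, compared with 48.5% of all tested genes, 7 of them at an unadjusted p below 0.05. Of the 12, 3 fell, compared with 1.39% of all tested genes, namely Nrep, Dpysl3 and Sox4 (adjusted p = 0.00215, 0.0133 and 0.0312). The sums of the 12 markers were 784.2, 834.1 and 950.3 CPM in FAD5x libraries and 1506.4, 1426.6 and 1271.4 CPM in Control libraries. Choroid plexus and ependyma markers were scarce, with 4 of 10 tested and sums of 3.83 to 16.5 CPM, and Ttr, the defining choroid plexus transcript, reached at most 3.02 CPM. The part of these cell types in the collagen values was not tested.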

How the data were processed

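Cortex RNA of 3 FAD5x and 3 Control libraries was sequenced, and the authors deposited raw counts per gene for all 6 libraries in 1 table. The notes of the submitters name STAR 2.7.11b, cutadapt, featureCounts, limma and edgeR 3.38.4, with GRCm39 as the build (per the submitters' processing notes). The library kit, its strandedness and the treatment of reads with several matches are not given in the sources used here, so counts of overlapping genes are uncertain. Of 47729 table lines, 1 with a cell that was not a number was left out. Symbols, gene types and exon lengths came from GENCODE M21 (GRCm38), by identifier, with 47309 matched and 419 not.

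Groups came from the treatment label, and columns were matched by library name. The test was the one of edgeR 4.0.16, run in R 4.3.3 (filterByExpr, trimmed mean of M values, robust quasi-likelihood F-test, two-sided) over 17074 genes, with Benjamini-Hochberg adjustment and a threshold of 0.05. The tested genes held at least 99.79% of the counts of every library, and the biological coefficient of variation was 23.3%. CPM were computed from the deposited counts with these factors. The procedure was tested on simulated counts.

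The collagen genes, their classes and all gene lists were chosen with earlier results of these data known. By rule, values in each library are given for called collagens, for the 2 of each class with the highest level per kilobase, for chains of their trimers and for Col25a1, and for each list up to 4 called genes are named or, with none called, the 2 most abundant. Genes given in each library beyond that rule (Col4a5, Col4a6, Col5a2, Col10a1, Col18a1, Col23a1, Col28a1, Gfap and Slc47a1) were chosen after their values were seen. Serpinh1 and Nid1 were named by the rule as called list genes, but their values in each library were given beyond it, with the values known. S100b and Ttr were also named outside the rule, and no cortical neuron marker was named. Promoter windows and motifs came from RefSeq (GRCm38.p6). Alternatives covered limma-voom (3.58.1), DESeq2 (1.42.0), the scaling, the filter, a length trend, a replicate block, the threshold, the class of Col15a1 and Col18a1, and each library left out in turn.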

Additional observations from a re-analysis of the deposited data

How the results depend on the processing

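Col3a1 was called in every alternative. The 537 genes called in all became 1413 with DESeq2, 1063 with no filter, 1251 at an adjusted p below 0.1 and 81 to 989 with single libraries left out. Called lower among all tested genes were 674 of 19095 with DESeq2 and 489 of 30274 with no filter. The 1251 at an adjusted p below 0.1, of 17074 tested, count both directions. Of the collagens, the 3 called lower became 9 with DESeq2, 6 with no filter and 6 at an adjusted p below 0.1. They became 1 to 8 with single libraries left out. The 0 called higher became 0 to 3 with single libraries left out, and 1 with FAD5x replicate 2 and Control replicate 1 both left out (chosen after seeing the data). For fibrillar genes the 1 called lower became 3 with DESeq2 and 1 to 4 with single libraries left out, for basement membrane genes 0 became 2 with DESeq2, 2 with no filter, 2 at an adjusted p below 0.1 and 0 to 2 with single libraries left out, and for the other genes 2 became 4 with DESeq2 and 0 to 2 with single libraries left out. The median of the other class was -0.21 with FAD5x replicate 2 and Control replicate 1 both left out. The cause of these changes was not tested, beyond the smaller number of libraries where some were left out.

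Replicate numbers did not pair the libraries: deviations of same-numbered libraries correlated at -0.04, -0.09 and -0.31, and no library correlated best with its own number. With a replicate block, 72 genes were called in all, of the collagens 1 lower (Col3a1), and of the other class 0.

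Genes with fold changes near 0 changed sign, all without being called. With the length trend removed, Col19a1 was at 0.001, Col27a1 at 0.092 and Col4a4 at 0.17, Col4a4 was at 0.026 with upper quartile factors, and Col20a1 was at -0.01 with library totals. With single libraries left out the ranges were -0.33 to 0.54 for Col14a1, -0.20 to 0.087 for Col19a1, -0.17 to 0.20 for Col20a1, -0.36 to 0.39 for Col27a1, -0.47 to 0.36 for Col4a4, -0.15 to 0.44 for Col6a5, -1.46 to 0.068 for Col7a1 and -0.79 to 0.033 for Col9a3. Low counts, under 85 in every library, limit Col4a3, Col4a4, Col4a6, Col6a4, Col6a5, Col6a6, Col8a1, Col8a2, Col9a1, Col10a1, Col13a1, Col14a1, Col17a1, Col22a1 and Col28a1.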

Other observations

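Markers of glia, which make little fibrillar collagen, are given as values beside the collagens. All 7 microglia markers had fold changes above 0 (median log2 0.68) and 1 rose, C1qa, a subunit of the complement initiator C1q (edgeR quasi-likelihood test, adjusted p = 0.00726), where 1.76% of all tested genes were called higher. Their summed level was 761.5, 352.2 and 488.0 CPM in FAD5x libraries and 242.1, 364.9 and 249.2 CPM in Control libraries, so FAD5x replicate 2 fell within the Control range. All 7 oligodendrocyte markers were also above 0 (median 0.53), and Mobp, a myelin gene, rose (adjusted p = 0.0474). Of all tested genes, 48.5% had values below 0. Of 6 oligodendrocyte precursor markers, Gpr17 fell (adjusted p = 0.0147), where 1.39% of all tested genes were called lower. The median of the list was -0.47. None of 7 astrocyte markers was called (median -0.22), with 0 lower and 2 higher at an unadjusted p below 0.05 (10.1% and 11.2% of all tested genes). The most abundant were the glutamate transporters Slc1a2 (log2 -0.32, adjusted p = 0.576) and Slc1a3 (-0.36, 0.417). The 2 higher were Gfap (log2 2.41, adjusted p = 0.168) and S100b (0.585, 0.0561), and 5 of the 7 markers had values below 0. Gfap measured 1508.2, 128.8 and 914.0 CPM in FAD5x libraries and 193.1, 168.6 and 118.7 CPM in Control libraries. FAD5x replicate 2 lay within the Control range of Gfap.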
